A study of Saccharomyces cerevisiae with 28 samples.

Results

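Budding yeast (Saccharomyces cerevisiae) makes all of its amino acids, and 50 genes of these pathways were followed here among the 6692 genes measured by RNA sequencing. They are the genes for histidine, tryptophan, branched-chain amino acids, lysine, the aromatic amino acids, threonine, serine, proline and asparagine, with GCN4, listed by pathway membership. All 50 were found through their systematic names, were above 0 in every library and passed the minimum mean level used for testing. HIS3, LEU2 and TRP1 are common selection markers of laboratory strains and the labels give no genotype, so these 3 are described apart, and counts of called genes cover the other 47.

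The series holds 28 samples. The 10 analysed here were cultures in synthetic minimal medium that grew in 0.2% glucose, were diluted into fresh medium of a stated glucose concentration and were kept there for 2 h. Strain YL388 was measured at 0.4, 0.2, 0.15, 0.1, 0.075, 0.05, 0.025, 0.02 and 0.0125% glucose, and strain YL390 at 0.2%, with 1 library each and no replicate. The labels name the strains by number only and do not list which amino acids the medium held.

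Amino acid synthesis in yeast is under general control: when an amino acid runs short, the kinase Gcn2 slows the start of translation, and the transcription factor Gcn4 is then made from an mRNA whose leader otherwise holds its translation back. Gcn4 binds the core sequence TGACTC and activates genes in most of these pathways together. Single pathways also have regulators of their own, such as Leu3 for leucine, Lys14 for lysine and Bas1 for histidine. Because Gcn4 is set mainly by translation and protein turnover, the level of the GCN4 transcript does not give the level of the protein.

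The Gcn4 core stood before most of the members. It was searched in the 500 bases before each start codon of the R64 genome on both strands. TGACTC was present before 33 of the 50 members, marker genes included (66.0%), and before 759 of 6000 protein-coding genes (12.6%). The longer TGACTCA, which contains TGACTC, was present before 23 members (46.0%) and 4.0% of all genes. The variant TGACTAA was present before 10 members (20.0%) and 6.0% of all genes. A match is a string of letters in this window and not a measured site. The following 30-base stretches are shown because they precede the members on which the results below turn, with 1 match in capitals, 5′ to 3′ on the strand of the gene. TGAGTCA is TGACTCA on the other strand.
HIS1, chrV:266050-266079: ttgataacagcgTGACTCttcccggaaatt
HIS1, chrV:265951-265980: aagcttccaagTGAGTCAcctctaccgttg
HIS4, chrIII:68571-68600: aggcagtcgaacTGACTCtaatagtgactc
HIS4, chrIII:68514-68543: cccatgcacagTGACTCAcgtttttttatc
HIS3, chrXV:721812-721841: ccacctagcggaTGACTCtttttttttctt
LEU4, chrXIV:426837-426866: ttacgtgtaagTGACTCAgttctttcaaag
LEU9, chrXV:522759-522788: gtcgtagtgaaTGACTCAtatttttccatc
ILV5, chrXII:839546-839575: gtggctgtcagTGACTCAtccgcgtttcgt
HOM3, chrV:258223-258252: tttcaggcccaTGACTCAccttttctttct
PRO3, chrV:200870-200899: gtgtaatatccTGAGTCActccttaaacct
ASN1, chrXVI:822382-822411: catgtaacattTGACTCAttctgtaaactg
The list holds genes that fell, rose and were not called. ARO7, which fell by 0.89 on the log2 scale, and GCN4 held none of the 3 motifs in this window. TGACTC preceded 16 of the 20 members that fell towards lower glucose, 3 of the 6 that rose and 13 of the 21 that were not called, markers apart.

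By the width of the confidence bounds in the files, each member rested on 184 to 8458 fragments in a library, with the fewest fragments in total in YL388 at 0.15% and the most in YL390. Levels are FPKM, fragments scaled to gene length and to the mapped fragments of the library, so each value is relative to the other transcripts of its library. The change of a gene is the fitted slope of log2(FPKM + 1) on log2 glucose times the span from 0.4 to 0.0125%, a 32-fold range, so that a negative change is a lower level at low glucose. It was tested by limma over the 6121 genes whose mean reached 1 FPKM, and a gene was called at an adjusted p below 0.05. Errors and p-values therefore rest on how far single libraries lie from the fitted line, which may be technical, since the labels do not say that the cultures were independent.

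As glucose fell, the genes of amino acid synthesis mostly changed by less than 2-fold, and those called mostly fell. Of the 47 members, 26 were called, of which 20 fell (42.6% of the 47) and 6 rose (12.8%), and 21 were not called. Among all genes tested 47.3% were called, with 15.7% that fell and 31.6% that rose. The median change was -0.17 for the members and 0.12 for all genes, and without the 0.0125% library it was -0.095 for the members and 0.11 for all genes. The member that fell furthest, HIS1, was also the 1 member of the 47 called with a change past 2-fold, against 8.54% of all genes. Without the 0.0125% library its change was -0.86 and 0 members were past 2-fold, while ARO7 joined HIS1 under median-of-ratios scaling (-1.01) and ARO7 (-1.02) and LEU9 (-1.025) joined it under quantile normalization. The median fall was larger at the low end. From 0.4 to 0.05% glucose the median difference of the 47 members was -0.04, against 0.07 for all genes. From 0.05 to 0.0125% it was -0.17, against 0.03 for all genes. Whatever its direction, the second of these steps was the larger in 36 of the 47 members and in 4178 of the 6121 genes tested. For the 46 enzyme genes the median log2 difference from 0.4% was -0.11 at 0.02% and -0.21 at 0.0125%. Summed over the 46 enzyme genes, the level was 8958 FPKM at 0.4%, 8527 FPKM at 0.05% and 7750 FPKM at 0.0125%.

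The balance of directions depends on the scaling. With median-of-ratios scaling, which takes the median change of all genes from 0.12 to 0.00, 27 members fell and 4 rose, against 22.8% and 23% of all genes, and the median of the members was -0.29. The 7 members called in addition, all lower at low glucose, were TRP2, LYS20, LYS21, TYR1, HOM6, PRO2 and ASN2. With quantile normalization 33 fell and 3 rose, against 28.4% and 19.8% of all genes, and the median of the members was -0.33. It called these 7 and also HIS7, TRP5, ILV6, ARO4, HOM2 and PRO1 as lower. For the 7 genes the absence of a call below thus holds in the deposited scaling only. For the others that quantile normalization added, it holds under median-of-ratios scaling too. With glucose taken in percent in place of its logarithm, limma called 0 genes of any kind, with 1914 of all genes and 18 of the 47 members at an unadjusted p under 0.05.

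**Figure D1:**
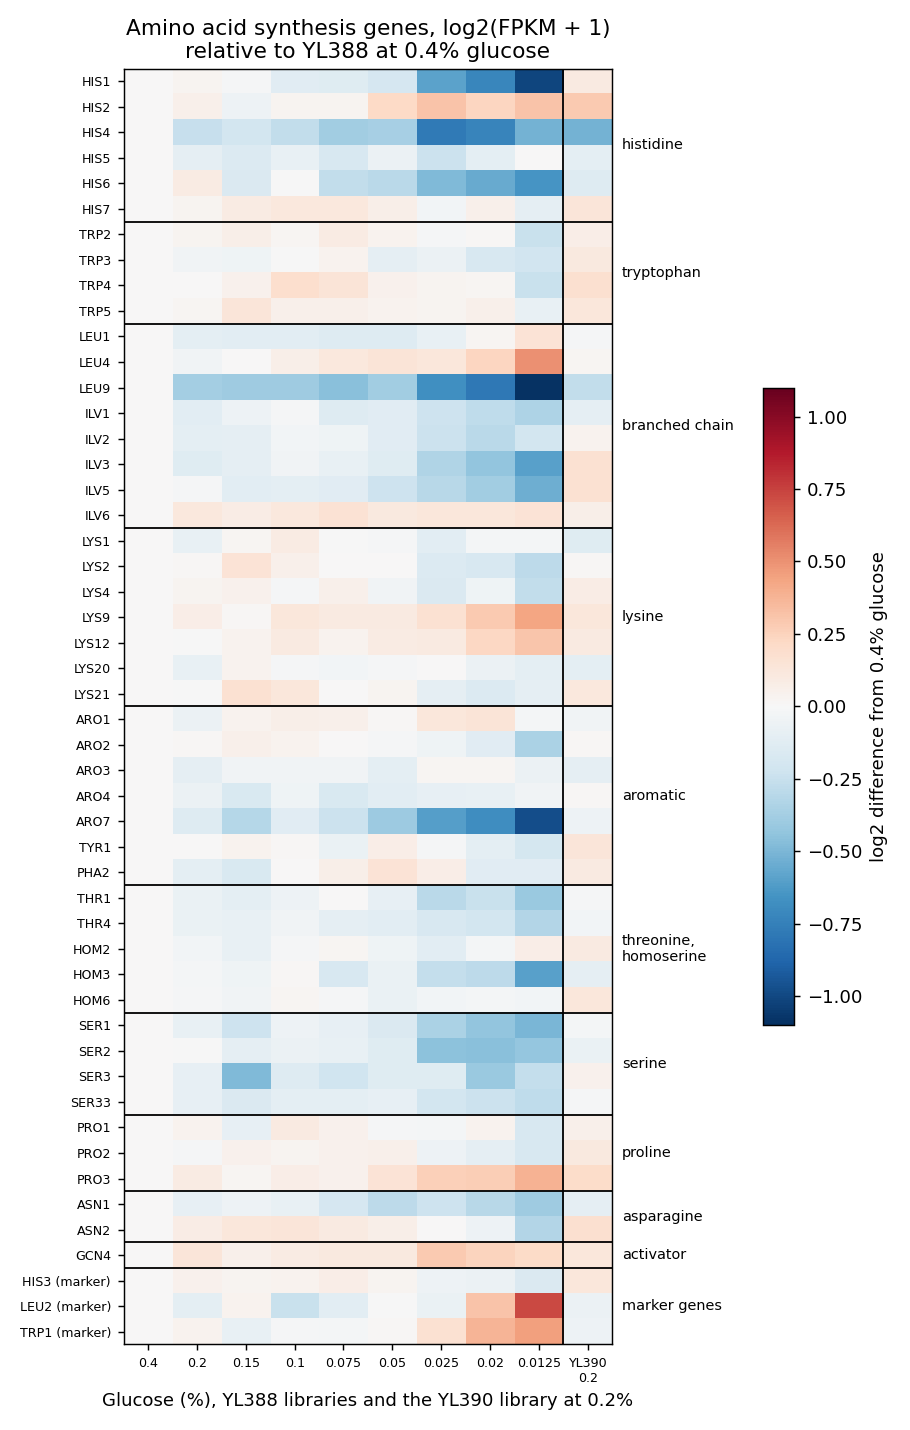
Rows are the 50 genes grouped by pathway with the 3 marker genes last, and columns are the 9 YL388 libraries by glucose concentration and the YL390 library at 0.2%. Colour gives the difference in log2(FPKM + 1) from the YL388 library at 0.4% glucose, and the strongest blue is at low glucose in HIS1, LEU9 and ARO7.

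GCN4, the activator (YEL009C, chromosome V, 138918 to 139763 on sacCer3), had the highest transcript level of the members. From 0.4 down to 0.0125% glucose it stood at 1363, 1494, 1413, 1451, 1467, 1471, 1663, 1614 and 1574 FPKM. The 3 libraries with the least glucose were the 3 highest and did not overlap the others. Separations of this kind, here and for genes below, are descriptions only. The concentration that parts the libraries was picked for each gene from its values. How many of all genes part in this way was not counted. The fitted change was 0.24 ± 0.07 (SE, n = 9 libraries; limma adjusted p = 0.0156). This call was lost without the 0.4% library (limma adjusted p = 0.0543). It was also lost under median-of-ratios scaling (change 0.12, limma adjusted p = 0.261), and under quantile normalization the change was -0.059 (limma adjusted p = 0.513). Its direction thus depends on the scaling. The genes whose log2 profiles over the 9 YL388 libraries were most like that of GCN4 were YDL218W (Pearson r = 0.979), PEX17, a gene of peroxisome assembly (r = 0.968), and YMR084W (r = 0.965). YDL218W and YMR084W had low levels, at 10.7 and 4.40 FPKM in 0.4% and at 14.1 and 8.62 FPKM in 0.0125% glucose. The correlations are descriptions over 9 libraries that share the same scaling.

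A list of 14 genes that act on GCN4 or its protein held translation factors, the Gcn2 kinase with its partners, the coactivator MBF1 and a kinase and cyclin of Gcn4 degradation. Of the 14, 11 fell, 2 rose and 1 was not called, against 15.7% that fell and 31.6% that rose among all genes, with a median change of -0.36. The steepest were GCD1 (115 FPKM at 0.4% and 78.0 FPKM at 0.0125%, change -0.55 ± 0.12, limma adjusted p = 0.00492) and GCD6 (80.3 and 53.6 FPKM, change -0.48 ± 0.10, limma adjusted p = 0.00439), which encode subunits of the initiation factor eIF2B. GCN1, the partner that lets Gcn2 sense uncharged tRNA, went from 30.5 to 20.1 FPKM (change -0.47 ± 0.15, limma adjusted p = 0.0266). GCN2 itself lay between 12.5 and 14.6 FPKM and was not called (limma adjusted p = 0.531). PHO85, a kinase that marks Gcn4 for degradation, rose from 130.1 to 174 FPKM (change 0.45 ± 0.05, limma adjusted p = 0.00033). Its cyclin PCL5 rose from 188 to 252 FPKM (change 0.29 ± 0.10, limma adjusted p = 0.0382). Other scalings and left-out libraries were not examined for these 14 genes or for the non-members named below.

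Histidine synthesis held the steepest fall of all members and also a rise. Of 6 genes, 3 fell, 1 rose and 2 were not called, against 15.7% that fell and 31.6% that rose among all genes. HIS1, the ATP phosphoribosyltransferase of the first step (YER055C, chromosome V, 264892 to 265785), stood at 392, 400.4, 389, 360.1, 358, 344, 259.6, 238 and 194 FPKM from high to low glucose. It was nearly level down to 0.15% and fell most below 0.05%. Its change was -1.04 ± 0.15 (limma adjusted p = 0.000785), and its square term also passed (-0.06, limma adjusted p = 0.00264). HIS6, the isomerase of the pathway (YIL020C, chromosome IX, 314035 to 314820), stood at 158, 168, 141, 157, 130.2, 128, 112, 107 and 100.2 FPKM, a change of -0.75 ± 0.10 (limma adjusted p = 0.000567). The 5 libraries below 0.1% were all lower than the 4 above. HIS6 shares 17 bases with YIL020C-A, which was listed at 0 in those 4 libraries and between 176 and 196 FPKM in the 5 below. The part of this overlap in the change of HIS6 was not tested. HIS4, which encodes a trifunctional enzyme of the pathway, was at 66.0 FPKM in 0.4%, 38.1 FPKM in 0.025% and 45.7 FPKM in 0.0125% glucose (change -0.67 ± 0.12, limma adjusted p = 0.00215). HIS2, the histidinol phosphatase, went the other way, from 85.8 to 107 FPKM (change 0.38 ± 0.08, limma adjusted p = 0.00399). HIS5, the aminotransferase, lay between 93.6 and 111 FPKM, and HIS7, the glutamine amidotransferase, between 88.2 and 103 FPKM, and neither was called. Of the regulators of this pathway, BAS1 went from 23.3 to 11.2 FPKM (change -0.68 ± 0.18, limma adjusted p = 0.0122) and its partner PHO2 from 25.6 to 32.9 FPKM (change 0.27 ± 0.09, limma adjusted p = 0.0358).

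Of the 4 tryptophan genes 1 fell and 3 were not called, against 15.7% that fell among all genes. TRP3, which encodes the glutaminase part of anthranilate synthase joined to a later enzyme of the pathway, stood at 99.3, 96.4, 96.1, 98.9, 102, 92.8, 94.9, 87.5 and 85.7 FPKM. Its change of -0.19 ± 0.07 (limma adjusted p = 0.0426) was close to the threshold and was lost on leaving out any of 7 libraries (limma adjusted p of up to 0.177). TRP2, the other part of anthranilate synthase, stood at 153, 157, 160.4, 156, 164, 157, 152, 155 and 129 FPKM (limma adjusted p = 0.161), with the 0.0125% library alone below the rest. TRP2 and TRP4 each contain a short open reading frame that was listed at 0 in every library. The centre of the bounds was between 38.5 and 64.7 FPKM for the frame in TRP2. For the frame in TRP4 it was between 6.95 and 11.6 FPKM, and the part of these overlaps was not tested. TRP4, the phosphoribosyltransferase, was also lowest at 0.0125%, at 87.5 FPKM, after 118 FPKM at 0.1%, and its square term passed (-0.04, limma adjusted p = 0.0407). TRP5, tryptophan synthase, lay between 109 and 127 FPKM.

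In the branched-chain pathway 5 of 8 genes fell, 1 rose and 2 were not called, against 15.7% that fell and 31.6% that rose among all genes. Opposite changes were seen in LEU4 and LEU9, isozymes of alpha-isopropylmalate synthase, the first step of leucine synthesis. LEU9 (YOR108W, chromosome XV, 523027 to 524841) stood at 108, 82.9, 82.0, 81.9, 78.1, 82.3, 67.0, 61.9 and 50.0 FPKM from high to low glucose (change -0.87 ± 0.12, limma adjusted p = 0.000651). LEU4 (YNL104C, chromosome XIV, 424895 to 426754) stood at 132, 128, 132, 138, 143, 145, 144, 156 and 187 FPKM (change 0.43 ± 0.09, limma adjusted p = 0.00517). LEU9 was thus lowest and LEU4 highest in the same library, at 0.0125%. The ratio of LEU4 to LEU9 was 1.23 at 0.4%, 1.68 at 0.1%, 2.15 at 0.025% and 3.74 at 0.0125%, and its log2 change of 1.30 passed an exact two-sided permutation test over the 9 libraries (p = 1.1e-05, adjusted p = 5.51e-05 over 5 isozyme pairs). A factor that scales a whole library cancels in this ratio, but quantile normalization does not scale by 1 factor and was not applied to it. The coding sequences were 81.2% identical with a longest shared run of 41 bases.

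LEU9 contains the open reading frame YOR108C-A, which was listed at 0 in 5 of the YL388 libraries and at 508 to 608.5 FPKM in the other 4. It was at 0 in the library with the highest level of LEU9 and in those with the lowest, and the part of the overlap in the change of LEU9 was not tested. LEU4 shares 36 bases with the frame YNL103W-A, which was listed at 0 in every library. The centre of the bounds of this frame was not 0 but between 40.9 and 67.4 FPKM. The part of this overlap in the change of LEU4 was not tested.

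The other members of the pathway that fell were ILV1, ILV2, ILV3 and ILV5, enzymes of isoleucine and valine synthesis. ILV3, the dihydroxyacid dehydratase (YJR016C), stood at 264, 239.8, 247, 257, 249, 241, 209, 195 and 174 FPKM (change -0.54 ± 0.10, limma adjusted p = 0.00281). All libraries below 0.05% were lower than all others. ILV5, the acetohydroxyacid reductoisomerase and the most abundant enzyme transcript of the set, went from 923 to 635 FPKM (change -0.52 ± 0.07, limma adjusted p = 0.000486). ILV1, the threonine deaminase, went from 162 to 128 FPKM (change -0.32) and ILV2, the catalytic subunit of acetolactate synthase, from 161 to 139 FPKM (change -0.25, limma adjusted p = 0.0167), a call that was lost without the 0.02% library (limma adjusted p = 0.0517). ILV6, the regulatory subunit of the same synthase, lay between 366 and 409 FPKM with no call (change 0.10 ± 0.06, limma adjusted p = 0.171). LEU1, the isopropylmalate isomerase, was at 55.3 FPKM in 0.4%, 50.0 FPKM in 0.075% and 61.6 FPKM in 0.0125% glucose, a shallow trough (square term 0.03, limma adjusted p = 0.0148). Its square term was not called without the 0.4% library (limma adjusted p = 0.079) or the 0.0125% library (limma adjusted p = 0.0903), and its line was called as rising without the 0.4% library (0.28, limma adjusted p = 0.0462).

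**Figure D2:**
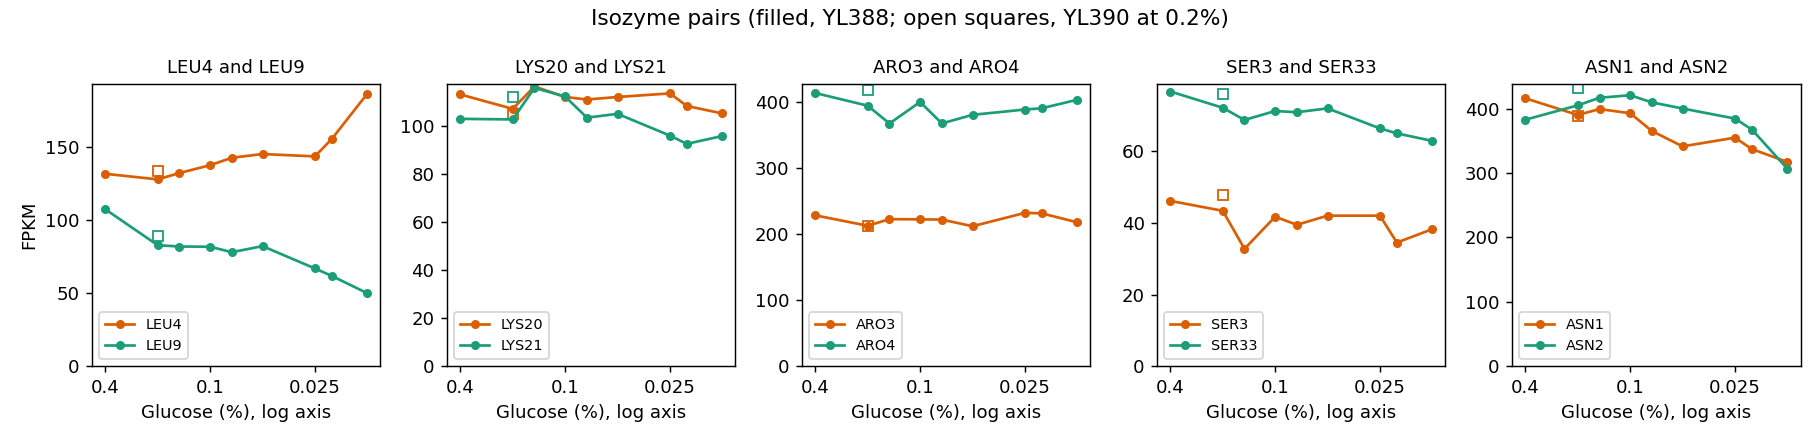
FPKM (from 0) against glucose concentration (log axis, falling to the right) for 5 isozyme pairs, with filled points for the 9 YL388 libraries and open squares for the YL390 library at 0.2%. LEU4 and LEU9 part as glucose falls, from a ratio of 1.23 to 3.74. Ratios of the other pairs had no trend past the threshold.

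The other isozyme pairs showed no such difference at the threshold. LYS20 and LYS21 encode homocitrate synthase, the first step of lysine synthesis. LYS20 stood at 113, 107, 116, 112, 111, 112, 113, 108 and 105 FPKM. LYS21 stood at 103, 103, 116, 112, 103, 105, 95.9, 92.4 and 95.7 FPKM (limma adjusted p = 0.0886), and was called as falling without the 0.4% library (-0.31, limma adjusted p = 0.0313). Their ratio lay between 0.998 and 1.18 (change 0.14, exact permutation p = 0.114, adjusted p = 0.286), but they are 91.9% identical with a shared run of 278 bases, so how reads were divided between them is uncertain. ARO3 and ARO4 encode the DAHP synthases that open the aromatic pathway and are inhibited by phenylalanine and by tyrosine. ARO3 stood at 228, 212, 222, 222, 222, 212, 232, 231 and 217 FPKM. ARO4 stood at 413, 394, 367, 399, 367, 380.0, 388, 389.9 and 403 FPKM. Neither was called (limma adjusted p = 0.824 and 0.908), and the ratio of ARO3 to ARO4 lay between 0.54 and 0.61 (change 0.03, exact permutation p = 0.694, adjusted p = 0.708).

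Among the 7 lysine genes 2 rose, 2 fell and 3 were not called, against 31.6% that rose and 15.7% that fell among all genes. LYS9, a saccharopine dehydrogenase (YNR050C), stood at 99.8, 105, 100.5, 109, 107, 107, 112, 122 and 135 FPKM (change 0.37 ± 0.08, limma adjusted p = 0.00448). LYS12, the homoisocitrate dehydrogenase, went from 210.5 to 260.1 FPKM (change 0.28 ± 0.06, limma adjusted p = 0.00699), a call that was lost under median-of-ratios scaling and quantile normalization. LYS2, the alpha-aminoadipate reductase (YBR115C), stood at 32.6, 33.0, 36.3, 33.9, 32.6, 32.7, 29.3, 28.7 and 26.4 FPKM (change -0.33 ± 0.09, limma adjusted p = 0.0162). It was level down to 0.05%, and its call was lost without the 0.0125% library (limma adjusted p = 0.0931). LYS4, the homoaconitase, went from 82.4 to 68.0 FPKM (change -0.25, limma adjusted p = 0.0303, lost without any of 4 libraries), and LYS1, the last enzyme of the pathway, lay between 59.6 and 69.0 FPKM. The regulator LYS14 lay between 22.2 and 23.6 FPKM. The summed level of the 7 enzyme genes was 706 FPKM at 0.4% and 754 FPKM at 0.0125%.

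Of the 7 aromatic genes 2 fell and 5 were not called, against 15.7% that fell among all genes. ARO7, the chorismate mutase at the branch towards phenylalanine and tyrosine (YPR060C, chromosome XVI, 674861 to 675631), stood at 130.3, 118, 105, 119, 110.2, 98.5, 85.3, 80.8 and 65.9 FPKM. The libraries at 0.05% and below were each lower than all libraries above, and the change was -0.89 ± 0.12 (limma adjusted p = 0.000486). ARO2, the chorismate synthase just before that branch, stood at 418, 420.2, 433, 429, 419.9, 415, 403, 383 and 328 FPKM (change -0.28 ± 0.09, limma adjusted p = 0.0321), and its call was lost without any of 4 libraries. Of the enzymes after ARO7, TYR1, for tyrosine, lay between 55.2 and 66.7 FPKM and was not called (change -0.16, limma adjusted p = 0.122), but median-of-ratios scaling (-0.28, limma adjusted p = 0.0184) and quantile normalization (-0.31, limma adjusted p = 0.00931) called it as falling. PHA2, for phenylalanine, lay between 36.6 and 45.6 FPKM. ARO1, which encodes the pentafunctional enzyme of the middle of the pathway, lay between 39.9 and 46.4 FPKM. At 0.0125% ARO7 stood at 0.506 times its level at 0.4% glucose.

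Of the 5 genes for homoserine and threonine 3 fell and 2 were not called, against 15.7% that fell among all genes. HOM3, the aspartate kinase that opens the pathway (YER052C), stood at 89.9, 88.5, 86.8, 90.8, 79.6, 85.4, 74.9, 73.6 and 58.9 FPKM (change -0.51 ± 0.11, limma adjusted p = 0.00499). THR1, the homoserine kinase (YHR025W), stood at 345, 328, 321, 332, 347, 325, 282, 290.4 and 259.8 FPKM (change -0.37 ± 0.09, limma adjusted p = 0.00744). Both were lower in the 3 libraries below 0.05% than in any other. THR4, the threonine synthase, went from 285 to 227 FPKM (change -0.27 ± 0.06, limma adjusted p = 0.00413). HOM2 and HOM6, the dehydrogenases between HOM3 and THR1, lay between 325 and 370.3 FPKM and between 394 and 421 FPKM and were not called. HOM6 was called as falling under median-of-ratios scaling (-0.15, limma adjusted p = 0.0467) and quantile normalization (-0.31, limma adjusted p = 0.0017), and HOM2 under quantile normalization (-0.22, limma adjusted p = 0.0168).

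In the serine pathway 3 of 4 genes fell and 1 was not called, against 15.7% that fell among all genes. SER2, the phosphoserine phosphatase of the last step (YGR208W), stood at 104, 103, 96.7, 99.2, 97.7, 94.4, 75.5, 75.2 and 76.7 FPKM (change -0.54 ± 0.09, limma adjusted p = 0.00144), a drop between 0.05 and 0.025% with little change on either side. SER1, the aminotransferase (YOR184W), stood at 194, 183, 166, 186, 182, 173, 152, 143 and 137 FPKM (change -0.48 ± 0.09, limma adjusted p = 0.0028). SER3 and SER33 encode phosphoglycerate dehydrogenase, the first step. SER33 stood at 76.7, 72.2, 68.7, 71.2, 70.9, 72.0, 66.4, 65.0 and 62.9 FPKM (change -0.24 ± 0.06, limma adjusted p = 0.00889). SER3 stood at 46.2, 43.4, 32.8, 41.7, 39.5, 42.0, 42.0, 34.5 and 38.3 FPKM and was not called (limma adjusted p = 0.356). Its lowest level was in the library with the lowest implied depth, at 0.15%. Without that library SER3 was called as falling (-0.28, limma adjusted p = 0.0421). The ratio of SER3 to SER33 had no trend past the threshold (change 0.06, exact permutation p = 0.708, adjusted p = 0.708). SHM2, the cytosolic serine hydroxymethyltransferase that uses serine for one-carbon units, went from 215 to 123 FPKM (change -1.08 ± 0.13, limma adjusted p = 0.00033).

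Of the 3 proline genes 1 rose and 2 were not called, against 31.6% that rose among all genes. PRO3, the pyrroline-5-carboxylate reductase of the last step (YER023W, chromosome V, 201076 to 201936), stood at 385, 410.0, 389.8, 405, 399, 427, 461, 464 and 502 FPKM (change 0.37 ± 0.07, limma adjusted p = 0.0019). Each library at 0.05% or below was higher than each above. PRO3 contains the open reading frame YER023C-A, itself between 787 and 1306 FPKM, and its part in the rise was not tested. The call of PRO3 was lost under quantile normalization. PRO2, the reductase before it, stood at 188, 186, 195, 192, 195, 195, 181, 176 and 167 FPKM, with no call on the line (limma adjusted p = 0.0902) and a square term of -0.02 (limma adjusted p = 0.0464). Without the 0.4% library its line was called as falling (-0.23, limma adjusted p = 0.0491). PRO1, the glutamate kinase, lay between 78.3 and 94.8 FPKM.

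The asparagine synthetases ASN1 and ASN2 were both lowest at the least glucose. ASN1 stood at 416, 390.0, 399, 393, 365, 341, 355, 337 and 317 FPKM (change -0.37 ± 0.06, limma adjusted p = 0.00138), and every library below 0.1% was lower than every other. ASN2 stood at 383, 405, 417, 421, 409.6, 400.0, 384, 367 and 307 FPKM, with its highest level at 0.1%. It was not called on the line (change -0.27 ± 0.12, limma adjusted p = 0.0783), and its square term passed (-0.04, limma adjusted p = 0.00962). The line of ASN2 was called as falling without the 0.4% library (-0.43, limma adjusted p = 0.0159), under median-of-ratios scaling (-0.40, limma adjusted p = 0.0237) and under quantile normalization (-0.52, limma adjusted p = 0.00802). The log2 ratio of ASN1 to ASN2 changed by -0.10, which did not pass (exact permutation p = 0.425, adjusted p = 0.708).

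**Figure D3:**
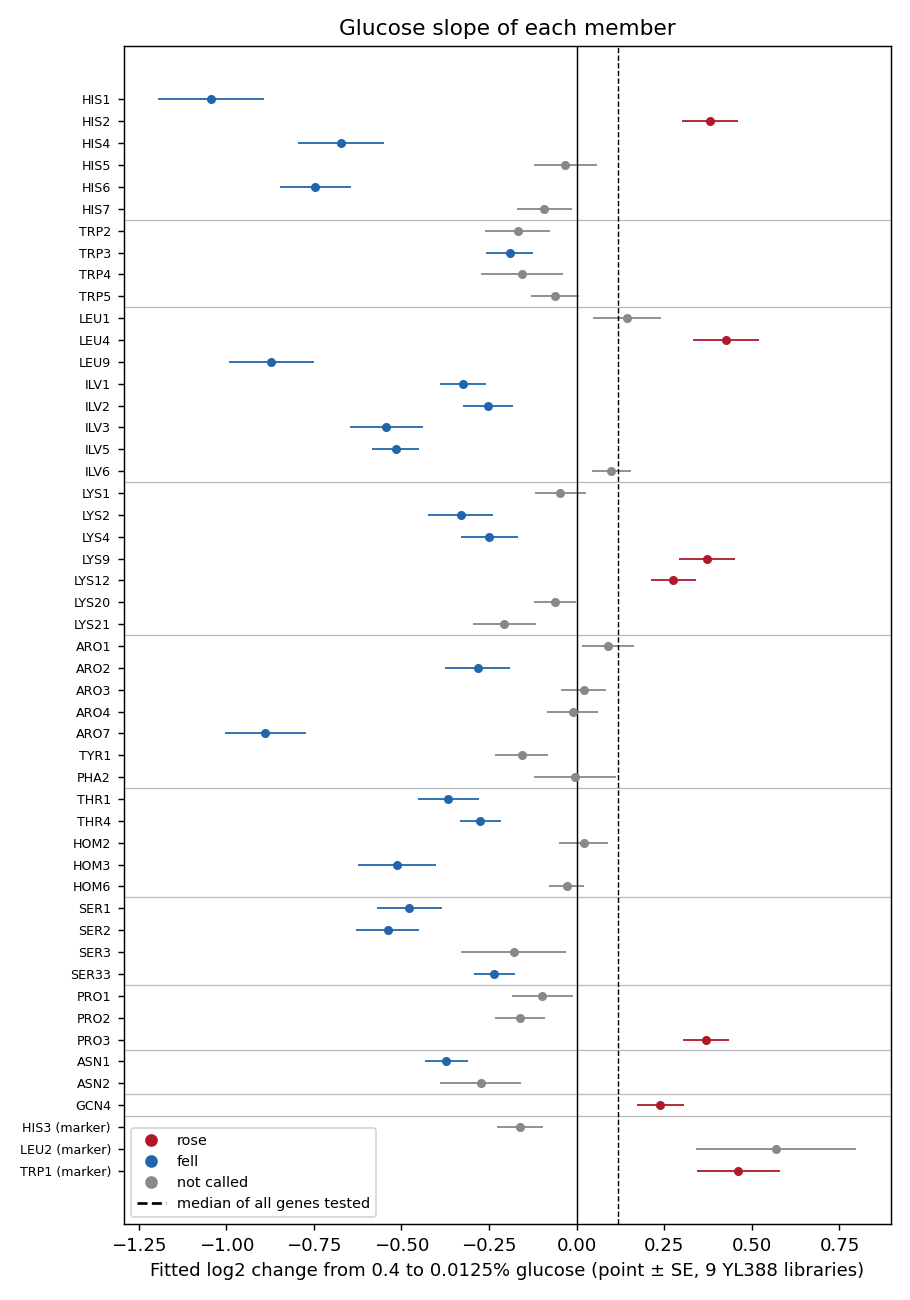
Fitted log2 change from 0.4 to 0.0125% glucose for each of the 50 genes (points) with its standard error over the 9 YL388 libraries (bars), grouped by pathway and coloured by the call. Most called genes lie left of 0, and the dashed line marks the median of all genes tested, at 0.12.

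Curvature of either sign was called in 983 of the 6121 genes tested (16.1%). Among the 47 members the square term passed with a negative sign in 7 (HIS1, TRP4, ILV3, LYS2, ARO2, PRO2 and ASN2). It passed with a positive sign in 1, LEU1. Of all 6121 genes, 452 (7.38%) had a negative and 531 (8.68%) a positive sign. The negative count fell to between 2 and 3 on leaving out the library at 0.4, 0.1, 0.075, 0.05, 0.025 or 0.0125%.

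Among enzymes that act beside these pathways, transaminases changed in both directions. BAT2, the cytosolic branched-chain aminotransferase, went from 65.0 to 177 FPKM (change 1.31 ± 0.11, limma adjusted p = 0.000114), while BAT1, its mitochondrial counterpart, went from 197 to 159 FPKM (change -0.28 ± 0.05, limma adjusted p = 0.00172). ARO9, an aromatic aminotransferase known for amino acid breakdown, went from 98.1 to 324 FPKM (change 1.49 ± 0.18, limma adjusted p = 0.000343). It overlaps another gene. ARO8, the other aromatic aminotransferase, lay between 243 and 290.2 FPKM and was not called (limma adjusted p = 0.221). Of the 12 partner enzymes and regulators listed, 3 rose, 3 fell and 6 were not called, against 31.6% that rose and 15.7% that fell among all genes. LEU3, LYS5, GLY1 and SHM1 were among those not called.

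The marker genes HIS3, LEU2 and TRP1 were transcribed in both strains. HIS3, the imidazoleglycerol-phosphate dehydratase (YOR202W), stood at 207, 214, 211, 212, 217, 211, 199, 198 and 185 FPKM in YL388 and at 225 FPKM in YL390 (change -0.16 ± 0.07, limma adjusted p = 0.0716). It was called as falling without the 0.4% library (-0.24, limma adjusted p = 0.024) and under both rescalings. LEU2, the isopropylmalate dehydrogenase (YCL018W), stood at 53.5, 49.5, 55.0, 45.1, 49.3, 53.2, 51.0, 66.7 and 89.2 FPKM and at 51.3 FPKM in YL390. It was level from 0.4 to 0.025% and higher in the last 2 libraries, and the line did not pass (change 0.57 ± 0.23, limma adjusted p = 0.0675) while the square term did (0.08, limma adjusted p = 0.0386). The line passed without the 0.4% library (limma adjusted p = 0.0339) or the 0.025% library (limma adjusted p = 0.0341). TRP1, the phosphoribosylanthranilate isomerase (YDR007W), stood at 183, 188, 173, 181, 180.4, 185, 205, 238 and 250.3 FPKM and at 176 FPKM in YL390 (change 0.46 ± 0.12, limma adjusted p = 0.0104). TRP1 shares 265 bases with YDR008C, which lay between 68.8 and 97.0 FPKM in the 7 libraries from 0.4 to 0.025% and was listed at 0 at 0.02 and 0.0125%, where TRP1 was highest. The part of this overlap in the change of TRP1 was not tested, and its call was lost without the 0.0125% library (limma adjusted p = 0.0651) and under quantile normalization. With the marker genes the counts were 20 that fell and 7 that rose of 50.

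At 0.2% glucose the libraries of the strains were compared by size of difference only, since 1 library each allows no test. Among the 47 members 0 differed by 2-fold in either direction, against 1.3% of all genes that were higher by that much and 1.66% that were lower in YL390. In 37 members the levels were within 10% of each other, which was not counted over all genes. The median log2 difference (YL390 minus YL388) was 0.07 for the members and 0.05 for all genes. In YL390 36 members were higher and 11 lower, while 3721 of the 6072 genes compared were higher and 2351 lower. The extremes were ILV3, at 296 FPKM in YL390 and 239.8 FPKM in YL388 (ratio 1.23), and HIS4, at 45.7 and 55.2 FPKM (ratio 0.83). GCN4 stood at 1487 and 1494 FPKM. LEU4 and LEU9 stood at 134 and 89.0 FPKM in YL390 and at 128 and 82.9 FPKM in YL388, a ratio of 1.504 against 1.54.

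A fit over all 10 libraries set the YL390 library against the curve of the 9 YL388 libraries, assuming that it varies as they do. Of the 47 members 0 lay above the curve in limma, against 0.85% of all genes, and 0 lay below it, against 2.81%, or 3.66% of all genes in either direction, while 6 members and 903 of all genes had an unadjusted p under 0.05. The nearest was ILV5, at 1039 FPKM in YL390 and 914 FPKM in YL388 at 0.2%, which lay 0.21 ± 0.05 above the curve (limma adjusted p = 0.0584). Among the partner genes ARO9 lay 1.03 ± 0.18 above it (limma adjusted p = 0.0165), at 237 FPKM in YL390 and 116 FPKM in YL388.

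**Figure D4:**
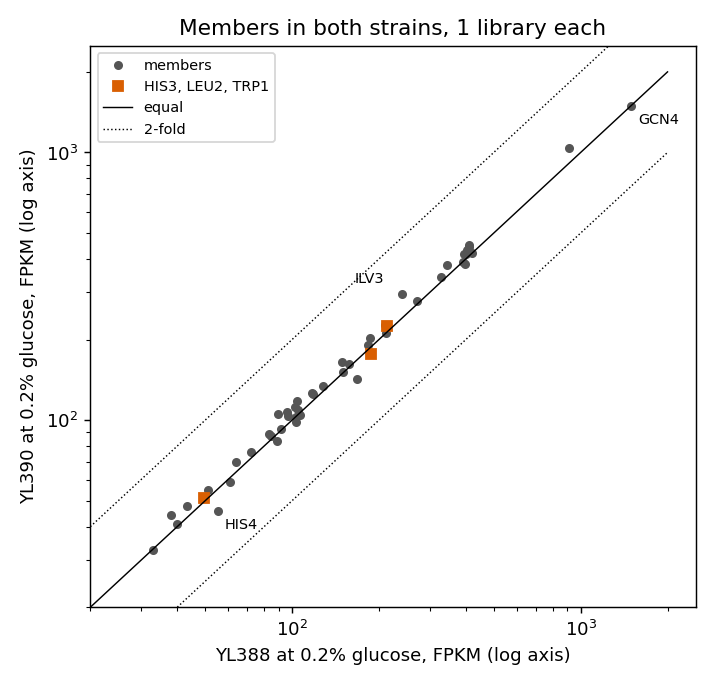
FPKM of the 50 genes at 0.2% glucose in the YL390 library against the YL388 library, both on log axes, with 1 library per strain. All points lie between the dotted 2-fold lines, and GCN4 lies on the line of equal levels at 1487 and 1494 FPKM.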

How the data were processed

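RNA of 10 steady-state cultures was analysed. The other 18 samples, transient stress experiments, were not analysed here. The deposited values are FPKM and their confidence bounds for each gene, made by the authors in the Cufflinks format per the file headers. TopHat, Cufflinks, DESeq2 and the build sacCer3 are named in the submitters' processing notes. Their versions, the annotation and the strand setting were not given in the sources used here. File coordinates, turned to count from 1, matched RefSeq R64 for 6000 of 6008 genes shared by systematic name, and promoter windows were read from R64. The FPKM of a member was 1.00 to 1.41 times the centre of its bounds, so close levels of different genes should not be ranked. In the files 8 members overlap another gene. Depth was read from the width of the bounds as 2 Poisson standard deviations on each side, for genes over 1500 bp.

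Slopes, curves and the YL390 offset were fitted with limma 3.58.1 in R 4.3.3 (eBayes with an intensity trend) on log2(FPKM + 1), which understates changes at low values, with Benjamini-Hochberg adjustment over every gene whose mean reached 1 FPKM. The fits were tested on simulated data with known changes. Isozyme ratios were tested by exact permutation of the 9 libraries, adjusted over 5 pairs. Alternatives were other pseudocounts, filters, scalings, the centre of the bounds, glucose in percent and each library left out. Values in every library are given for GCN4, the marker genes, the isozyme pairs and the 2 steepest members of each pathway. From the lists of partner genes and of GCN4 control up to 3 of the steepest called genes are named by that rule, and other genes of these lists were named after their values were seen. The members, lists and rules were chosen with earlier results of these data known.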

Additional observations from a re-analysis of the deposited data

How the results depend on the processing

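The 6 members that rose and the 20 that fell kept these counts under other pseudocounts (0.1 and 5), no filter, a filter at 10 FPKM, the centre of the bounds and no intensity trend. Quantile normalization gave 3 that rose and 33 that fell, and glucose in percent gave 0 and 0. Under quantile normalization the change turned negative for 6 members: ILV6 (-0.17) and HOM2 (-0.22), which were then called, and GCN4 (-0.059), LEU1 (-0.013), ARO1 (-0.0595) and ARO3 (-0.14), which were not. Median-of-ratios scaling turned 4 of these (ILV6, HOM2, ARO1 and ARO3), with no call. The cause was not tested. Leaving out each library gave a count of 6 that rose each time and 16 to 22 that fell. In the same fits 1502 to 1949 of all genes rose and 671 to 974 fell, of 6114 to 6121 tested. Of the 26 called members, 20 kept the call in every fit with a library left out. Of these, 18 also kept it under every other setting that held them, glucose in percent apart. Calls kept were not counted over all genes. Leaving out overlapping genes removed 4 called members and changed no call of the rest. Square terms above 0 ranged from 0 to 1 and those below 0 from 2 to 7 over the libraries left out, and without the intensity trend 4 were below 0. The YL390 library lay above the curve for 0 to 1 members over the libraries left out and for 1 with no filter, ILV5, which also passed without the 0.0125% library. The change of the LEU4 to LEU9 ratio ranged from 1.01 to 1.38 over the libraries left out (exact permutation adjusted p of 0.00198 at most). The ratio changes of the other pairs ranged from 0.11 to 0.24 for LYS20 and LYS21, from -0.0019 to 0.12 for ARO3 and ARO4, from -0.02 to 0.15 for SER3 and SER33 and from -0.25 to 0.05 for ASN1 and ASN2. No paired analysis was possible because each group analysed has 1 library. With 1 library per concentration, small changes among the members without a call are not shown to be absent.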
